A study of Homo sapiens with 18 samples.

Results

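The genes described here were 9 components of the tight junction, the seal between neighbouring epithelial cells. They were the claudins *CLDN1*, *CLDN3*, *CLDN4*, *CLDN6*, *CLDN7* and *CLDN12*, occludin (*OCLN*) and the plaque proteins *TJP1* (ZO-1) and *TJP3* (ZO-3). They were chosen by name, and all 9 were found by symbol among the 21944 genes in the authors' deposited table, each at all 3 times. The table came from bulk RNA sequencing of pancreatic progenitors that were made from human embryonic stem cells, detached on day 19 of differentiation and reseeded. The 18 samples formed 6 groups of 3. Cells were placed on fibronectin (FN) and collected 3, 6 or 24 h after reseeding, or on the laminin isoform laminin-411 (LN411) and collected at the same 3 times. By the labels the groups differed in coating and time, and FN at the matching time was the comparator for LN411. The sample labels name the HUES4 line, while the growth description and the paper name NGN3-GFP, an SA121-derived line with a reporter for *NEUROG3*. Both are established embryonic stem cell lines, and the labels do not settle which was sequenced.

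The value used for every gene was the deposited mean normalized count, a read count scaled for library size and averaged by the authors over all samples. For any one gene it did not vary among the 3 times, the largest relative gap being 4.89e-07. It is thus 1 number per gene that joins LN411 with FN and all times. The table's other columns are the authors' own comparisons and were not used here, so that no difference between LN411 and FN, no spread between replicates and no test is given for any gene. The depth of single libraries is unknown. Differences between genes below are differences between means without an error, and in bulk RNA fewer cells of a type and less RNA per cell cannot be told apart.

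Claudins span the membrane with 4 passes and meet claudins of the next cell, forming strands that close the gap between cells or leave pores selective for charge and size. Occludin is another membrane protein of the same strands. The TJP proteins are scaffolds under the membrane that tie claudins and occludin to actin filaments. In the developing pancreas, the epithelium from which ducts and endocrine cells form is joined by such junctions around its lumens.

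The claudins share a short signature in their first extracellular loop, a leucine and a tryptophan after a glycine or asparagine, followed by 2 cysteines. A search of the translated reference transcripts found it 1 time in each of the 6 claudins. The coding bases of this stretch are shown because they carry what makes these 6 genes one family, and because their likeness bears on how well reads can be told apart. They were read 5′ to 3′ from GENCODE v44 transcripts on GRCh38, with the codons of the 5 signature residues in capitals.
CLDN1: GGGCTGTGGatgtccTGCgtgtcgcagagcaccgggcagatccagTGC
CLDN3: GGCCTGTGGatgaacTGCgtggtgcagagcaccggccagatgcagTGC
CLDN4: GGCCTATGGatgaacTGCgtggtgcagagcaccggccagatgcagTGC
CLDN6: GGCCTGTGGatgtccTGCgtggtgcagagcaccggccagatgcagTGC
CLDN7: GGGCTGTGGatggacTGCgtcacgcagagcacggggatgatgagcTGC
CLDN12: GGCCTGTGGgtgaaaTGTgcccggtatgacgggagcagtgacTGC
The stretch was 48 bases long in 5 of the claudins and 45 in *CLDN12*. On GRCh38 it lies within a single exon in each gene, at chr3:190322015-190322062 on the minus strand for *CLDN1*, chr7:73769861-73769908 on the minus strand for *CLDN3* and chr7:73831346-73831393 on the plus strand for *CLDN4*. For the others it lies at chr16:3015830-3015877 on the minus strand for *CLDN6*, chr17:7261852-7261899 on the minus strand for *CLDN7* and chr7:90412833-90412877 on the plus strand for *CLDN12*. Over the whole proteins, which have 209 to 244 residues, *CLDN3* and *CLDN4* were the most alike pair, with 71.5% identity over 207 aligned residues. *CLDN4* and *CLDN6* shared 62.2%, *CLDN1* and *CLDN7* 61.7%, and *CLDN3* and *CLDN6* 60.4%. *CLDN12* stood furthest from the rest, with 24.5% to 32.8% identity to the other 5 claudins. *TJP1* and *TJP3* shared 49.9% over 872 aligned residues.

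Per kilobase of merged exons, the claudins held the highest levels among the 9 genes, and 1 of them stood far above the others. In counts, *TJP1* was above *CLDN7*. *CLDN6*, a claudin known from embryonic epithelia and pluripotent cells, reached 49940.2 mean normalized counts. This was 28718 per kilobase of merged exons, the scale on which genes of different length are compared here. Only 35 of the 21861 listed genes with an annotated length had a higher level per kilobase. *CLDN1*, a barrier-forming claudin of many epithelia, had a mean normalized count of 17879 and a level of 4928 per kilobase, 5.83-fold lower than *CLDN6*. *CLDN3* followed with a mean normalized count of 5762 and 4523 per kilobase, 6.35-fold lower than *CLDN6*. *CLDN4*, its neighbour on chromosome 7, had 11991 and 2552 per kilobase, 11.3-fold lower than *CLDN6*. The order of *CLDN3* and *CLDN4* thus turned with the scale, with *CLDN4* higher in counts and *CLDN3* higher per kilobase. *CLDN3* has 1 annotated transcript of 1274 bases. *CLDN4* has 5 transcripts, with 4699 bases of merged exons and 4163 in the longest transcript. Its canonical transcript has 1 exon, and the level on that length was not computed. The order of *CLDN3* and *CLDN4* per kilobase therefore holds for the lengths used and may not hold for a shorter *CLDN4* transcript. The levels of *CLDN1* and *CLDN3* per kilobase were close to each other, and whether they differ beyond the spread of samples was not tested.

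*CLDN7* and *CLDN12* formed a lower step among the claudins. *CLDN7*, a claudin of tubular epithelia, had a mean normalized count of 1604.8 and 644 per kilobase. *CLDN12*, a distant member of the family, had 3646 and 544 per kilobase. Per kilobase of the longest transcript instead of merged exons, *CLDN12* had 1023 and *CLDN7* 835, so that the order of these 2 genes depended on the length used. Both were far below *CLDN6* on either length, *CLDN7* by 44.6-fold and 34.4-fold and *CLDN12* by 52.8-fold and 28.1-fold.

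Occludin and the plaque proteins were the 3 lowest of the 9 genes per kilobase. *TJP3* had a mean normalized count of 1231 and 310 per kilobase, and *TJP1*, the more widely expressed scaffold, had 2744 and 242 per kilobase. *OCLN* was the lowest, with 1604.7 and 143 per kilobase, 201-fold below *CLDN6* on merged exons and 115-fold on the longest transcript. With the longest transcript as the length, these 3 genes kept their order, at 400 for *TJP3*, 345 for *TJP1* and 249 for *OCLN*. The counts of *OCLN* and *CLDN7* were nearly equal, but their levels per kilobase were not, since the merged exons of *OCLN* cover 11259 bases and those of *CLDN7* 2492.

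**Figure D1:**
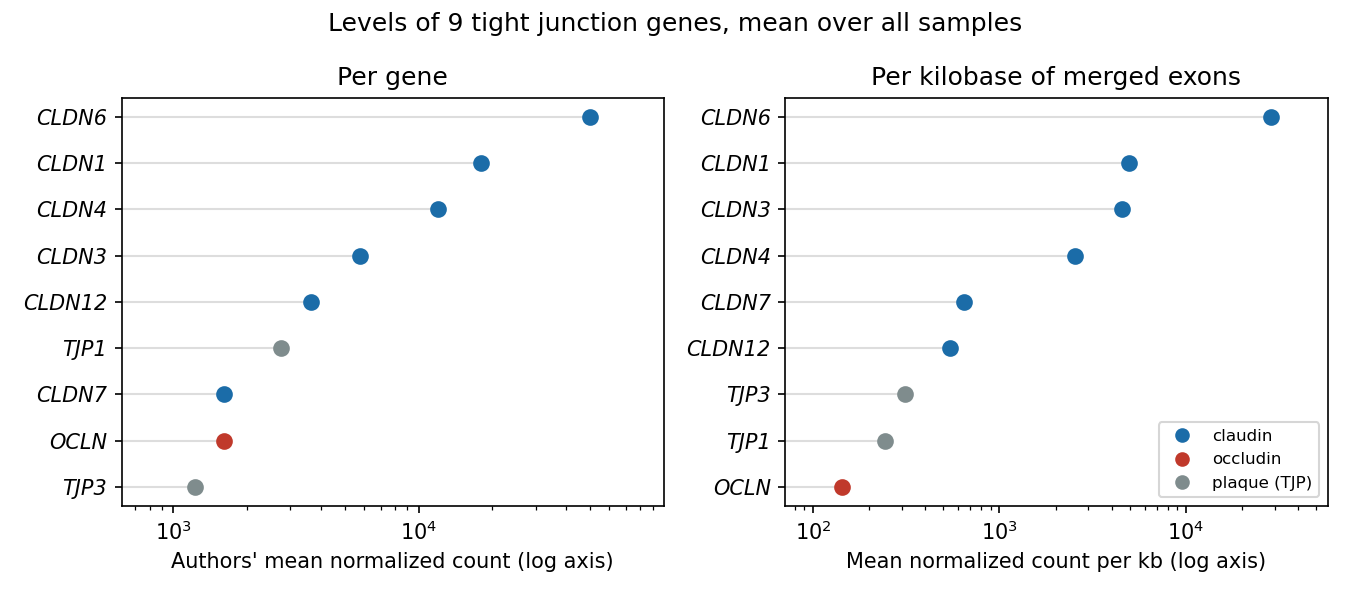
Levels of the 9 genes as 1 mean over all samples, with the authors' mean normalized count on the left and the same value per kilobase of merged exons on the right, both on log axes. Each point is a gene, coloured by role, and no error is shown because the means carry none. *CLDN6* is the highest on both scales at 49940.2 and 28718, and *OCLN* is the lowest per kilobase at 143. The lengths are not corrected for sequence repeated elsewhere in the genome.

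All 9 genes lay above the median of the listed genes, on the count scale, where that median was 297, and per kilobase, where it was 76.2. Their percentiles per kilobase, the share of genes with a lower level, ran from 58.8 for *OCLN* through 67.2 for *TJP1* and 71.6 for *TJP3* to 99.8 for *CLDN6*. *CLDN1*, *CLDN3* and *CLDN4* were at 98.6, 98.4 and 96.7. The median percentile of the 9 genes was 84.4 on the count scale and 84.3 per kilobase. Together the mean normalized counts of the 9 genes made up 0.181% of the sum over all listed genes, and *CLDN6* alone made up 51.8% of the sum of the 9. Members were picked by name with earlier results of these data known, so that this position among all genes is a description of the list.

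The other tight junction genes, a list of 46, placed these levels in context. Of these, 40 were listed, with a median of 203 per kilobase against 644 for the 9 members. The lists differ in make-up, since the 12 other claudins had a median of 32.4 per kilobase and the 10 other plaque genes one of 450. No gene among the 40 was above *CLDN6* per kilobase, 11 were above the members' median and 16 were below *OCLN*, while 27 were above the median of all genes. Counting the members, 18 of 24 claudins were listed. The 6 member claudins made up 84.1% of the summed level per kilobase of the 18 and 75.8% of their summed counts. Members were picked with earlier results known, so these shares too describe the list. *CLDN18* was the sole other claudin above any of the 6. *CLDN18*, a claudin of stomach and lung epithelium, had a mean normalized count of 27378 and 7370 per kilobase, between *CLDN6* and *CLDN1*. The remaining 11 claudins listed had at most 167 per kilobase, the value of *CLDN15*. *CLDN20* and *CLDN24* were the other genes of the list with a mean normalized count below 10, at 7.57 and 5.65. *CLDN8*, *CLDN14*, *CLDN17*, *CLDN22*, *CLDN25* and *CLDN34* had no row among the listed genes.

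In the plaque, the members were not the leading genes. Of the 10 other plaque genes, 8 were above both *TJP3* and *TJP1* per kilobase. They were led by *AFDN* (afadin, which links nectins to actin) with 1786 and *MAGI1* (a membrane-associated scaffold) with 1572 per kilobase, the mean normalized counts being 24550 and 18441. *LSR*, a receptor that marks the corners where 3 cells meet, had a mean normalized count of 21999.7 and 7544 per kilobase. *F11R* (junctional adhesion molecule A) had 16899.9 and 3339 per kilobase, and 36.6% of its exonic bases lie under exons of another gene on the same strand. Among the MARVEL proteins, the family of *OCLN*, *MARVELD3* had 320 per kilobase, *OCLN* 143 and *MARVELD2* (tricellulin) 117.

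**Figure D2:**
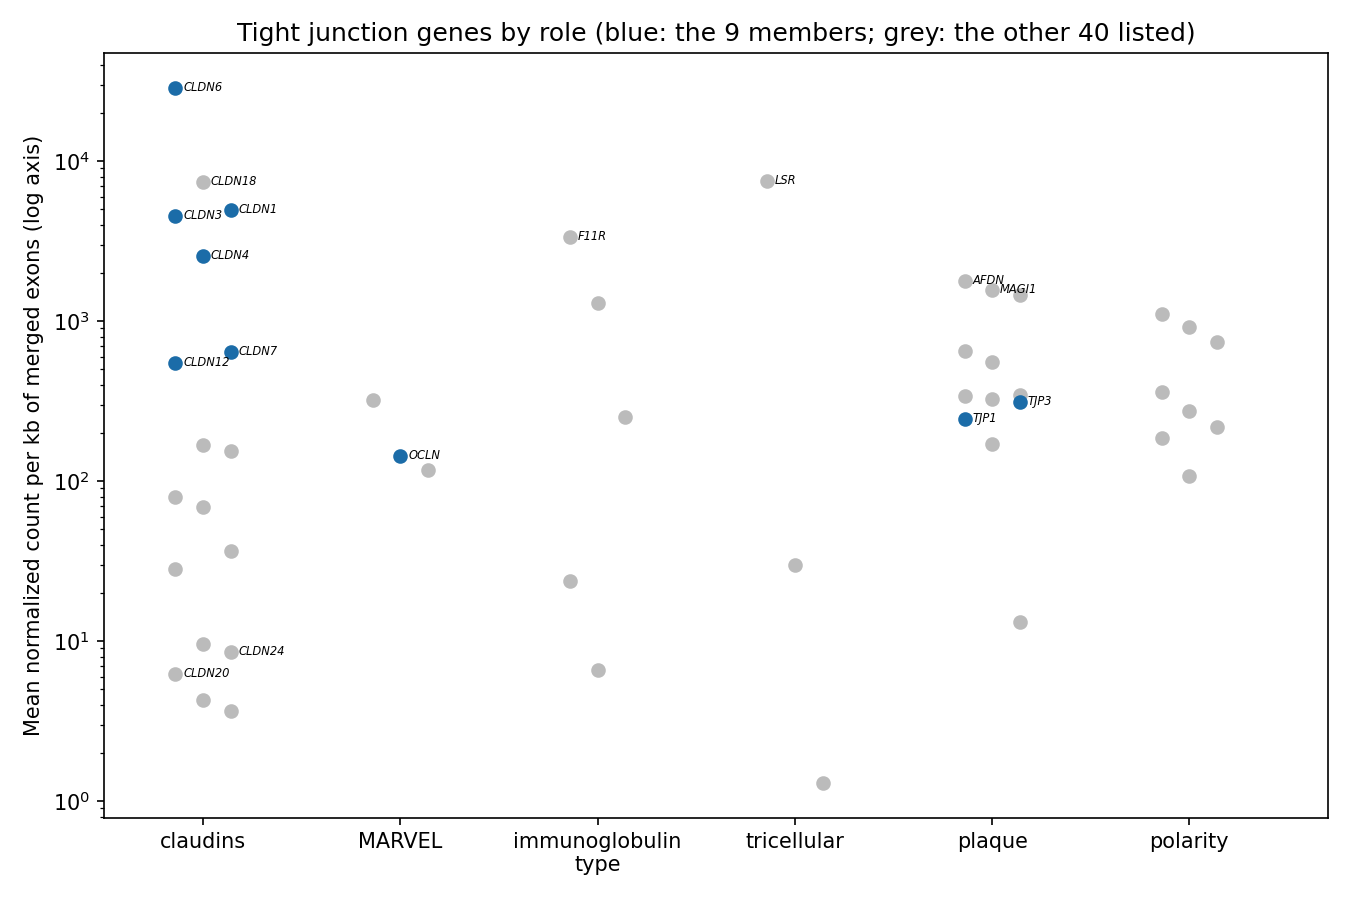
Mean normalized count per kilobase of merged exons, on a log axis, for the 9 members in blue and the 40 other listed tight junction genes in grey, grouped along the horizontal axis by role. Each point is a gene with 1 mean over all samples. Claudins span the widest range, from *CLDN6* at 28718 to *CLDN5* at 3.63. Names are given for the members and for the other genes named by level.

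How far a level can be read depends on how much of a gene's sequence belongs to it alone, and here *OCLN* differed from the other members. The length of the reads is not given in the sources used here, so that windows of 50 and 100 bases along the exons were searched in GRCh38. Each window lay inside 1 stretch of merged exons. Stretches shorter than the window gave none, and no window crossed a splice junction. Of the 100-base exonic windows of *OCLN*, 47.2% occurred again elsewhere, all on chromosome 5, partly in sequence with no annotated gene and partly in the pseudogene *OCLNP1* at chr5:71074225-71093193 on the minus strand. The shares of these 2 kinds of place were not computed. At 50 bases the share was 59.0%, and the places lay on 24 chromosomes, in several annotated genes and in sequence with no annotated gene. Within the coding part, 495 of 1566 bases in 3 of 8 coding exons lay in 100-base windows shared with *OCLNP1*. These windows were taken inside single coding exons. Coding exons 1, 7 and 8, of 50, 42 and 99 bases, were too short to hold one, so that the 495 bases are a lower bound. The first window shared with *OCLNP1*, at the start of coding exon 4 of *OCLN*, is printed in full because it is the sequence that a read could take from either locus.
OCLN and OCLNP1: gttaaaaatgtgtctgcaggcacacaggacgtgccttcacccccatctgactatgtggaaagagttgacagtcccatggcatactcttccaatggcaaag
It lies at chr5:69534694-69534793 on the plus strand in *OCLN* and at chr5:71093093-71093192 on the minus strand in *OCLNP1*. *OCLNP1* has no row among the listed genes, nor has *CLDN7P1*, the pseudogene named for *CLDN7*. Reads that fit both places equally well are not counted by the counting mode that the authors used. The part of this in the level of *OCLN*, and in its place as the lowest member per kilobase, was not tested.

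For the claudins, the sequences shared were shorter. *CLDN3* and *CLDN4*, the pair most alike, shared a longest run of 71 coding bases, which begins inside the signature stretch shown above.
CLDN3 and CLDN4: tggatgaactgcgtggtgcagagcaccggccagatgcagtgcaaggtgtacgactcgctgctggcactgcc
This run lies at chr7:73769832-73769902 on the minus strand and at chr7:73831352-73831422 on the plus strand. At 100 bases no exonic window of either gene occurred again, and at 50 bases 1.80% of those of *CLDN3* and 1.12% of those of *CLDN4* did. For *CLDN3* these windows occurred again in *CLDN4* alone. For *CLDN4* they occurred again on 23 chromosomes, partly in *CLDN3* and partly in other genes or in sequence with no annotated gene. *CLDN6* shared a coding run of 74 bases with its neighbour *CLDN9*, which also includes part of the signature.
CLDN6 and CLDN9: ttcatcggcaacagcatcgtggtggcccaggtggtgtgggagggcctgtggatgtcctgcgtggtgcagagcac
It lies at chr16:3015846-3015919 on the minus strand in *CLDN6* and at chr16:3013465-3013538 on the plus strand in *CLDN9*. *CLDN9* had a mean normalized count of 244.6 and 155 per kilobase. Of the exonic windows of *CLDN6*, 10.9% occurred again at 50 bases and 1.43% at 100 bases, counting all places in the genome. At 100 bases these places lay in *DAP3P1*, *MSTO1* and ENSG00000223503 and not in *CLDN9*, and at 50 bases they included all 4 of these genes. Among the windows searched, *CLDN1*, *CLDN7*, *TJP1* and *TJP3* had no repeated window at either length, and *CLDN12* had 1 of 5877 at 50 bases. For *TJP3*, a gene of many short exons, only 1862 windows of 100 bases could be taken from 3964 exonic bases.

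Overlap with other annotated genes was the second limit. The exons of *CLDN12* (ENSG00000157224, chr7:90383721-90513402, plus strand) were covered to 17.6% by exons of other genes on the same strand, among them *GTPBP10* and *CDK14*, whose mean normalized counts were 1178.5 and 4531. The others were *PTTG1IP2* and ENSG00000273299, which have no row among the listed genes. Those of *CLDN7* (ENSG00000181885, chr17:7259903-7263983, minus strand) were covered to 12.3% when both strands are counted. ENSG00000262302 on the same strand, which has no row among the listed genes, covered 10.8%, and *ELP5* on the opposite strand covered 1.52%. Those of *CLDN6* (ENSG00000184697, chr16:3014712-3020071, minus strand) were covered to 2.30%, by *TNFRSF12A* on the opposite strand. *TJP3* (ENSG00000105289, chr19:3708362-3750813, plus strand) was covered to 1.06%, by *APBA3* on the opposite strand. *CLDN1* (ENSG00000163347, chr3:190305707-190322446, minus strand), *CLDN3* (ENSG00000165215, chr7:73768997-73770270, minus strand), *CLDN4* (ENSG00000189143, chr7:73799542-73832690, plus strand), *OCLN* (ENSG00000197822, chr5:69492292-69558104, plus strand) and *TJP1* (ENSG00000104067, chr15:29699367-29968915, minus strand) had no exonic overlap. The sources used here do not say whether counting used the strand.

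**Figure D3:**
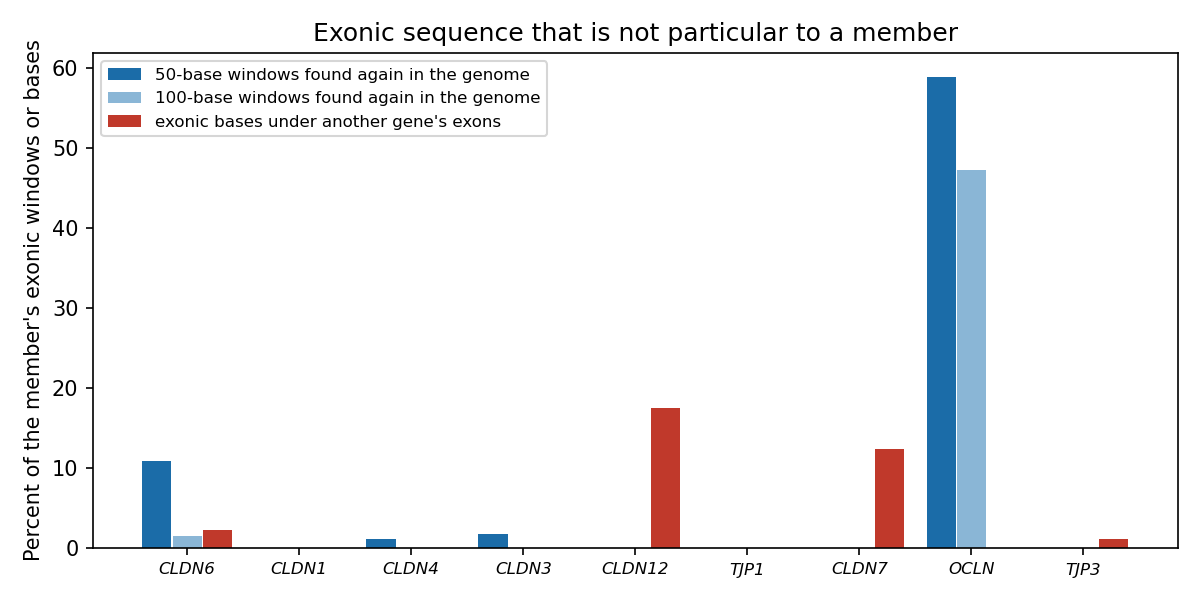
For each of the 9 genes, ordered by mean normalized count, the bars give the percent of exonic windows of 50 bases (dark blue) and 100 bases (light blue) that occur again in GRCh38, and the percent of exonic bases under another gene's exons on either strand (red). *OCLN* has 59.0% and 47.2% repeated windows, and *CLDN12* and *CLDN7* have the largest overlaps at 17.6% and 12.3%.

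The label of the cells was checked against markers on the same means. Of 10 pancreatic progenitor genes, all were listed, with *SOX9* at 5259, *PDX1* at 4969 and *NKX6-1* at 773 per kilobase, while *PTF1A* had a mean normalized count of 12.5. The epithelial genes *EPCAM* (28641 per kilobase), *KRT8* (24232), *KRT19* (22610), *KRT18* (17857) and *CDH1* (8461) were at the 99th percentile, a range that also holds *CLDN6*. The stem cell genes *POU5F1* and *NANOG* and the blood gene *PTPRC* had no row among the listed genes. Endothelial genes had mean normalized counts of at most 75.0. The 4 mesenchymal genes spread to both sides of the median of all genes, with *VIM* at 1264 and *COL1A1* at 454 per kilobase above it and *COL3A1* at 47.4 and *PDGFRB* at 15.9 below it. All 5 endocrine genes were listed and spread likewise, with *CHGA* (chromogranin A, of secretory granules) at 1426 and *NEUROG3* (a factor of endocrine precursors) at 289 per kilobase. The hormone genes *INS* and *GCG* were at 12.7 and 6.87 per kilobase and *NEUROD1* at 8.67, all below the median of all genes. Mean normalized counts were 8.32 for *INS*, listed at 1 of the 3 times, and 16.3 for *GCG*, listed at 2. *AFP*, a fetal liver and endoderm gene, had 8334 and *ALB* 187 per kilobase. How much cells other than progenitors add to the levels of the 9 genes was not tested.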

How the data were processed

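Polyadenylated RNA from 18 samples was sequenced on an Illumina instrument. According to the methods and the submitters' processing notes, the authors aligned reads with STAR 2.7.2d to hg38/GRCh38, counted reads per gene with STAR and GENCODE annotation, and normalized with DESeq2 1.34.0. Each deposited value is a signal: the normalized count of a gene, scaled by size factors and averaged by the authors across the samples. The table also holds the authors' log2 fold changes, standard errors, statistics and p-values of LN411 against FN, which were not used here. Values of single samples were not analysed here, so the planned edgeR fit of counts, with its alternatives, could not be made, and nothing in the text rests on a test.

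Genes were matched by Ensembl identifier to GENCODE v44 on GRCh38, of which 99.6% of listed genes had a length. That annotation is newer than the one used for counting. Levels per kilobase divide the mean by the merged exon length of all transcripts or by the longest transcript. Percentiles give the share of listed genes with a lower level. Repeats were exact matches on either strand in chromosomes 1 to 22, X, Y and M. Protein identity came from global alignment of translated canonical transcripts (BLOSUM62, biopython 1.88). Functions were tested on simulated data. Members and lists were chosen with earlier results of these data known. Named genes were all members, the 5 other tight junction genes with the highest mean normalized count, those below 10 or without a row, markers, genes overlapping members and pseudogenes named for a member. *CLDN5*, *CLDN9*, *CLDN15*, *MARVELD2*, *MARVELD3*, *DAP3P1*, *MSTO1* and ENSG00000223503 were named outside this rule, after their values were seen. Calculations used Python 3.11.15, numpy 2.4.6 and pandas 2.3.3. No columns of other samples were used. A gene of the tight junction list is not reported by name here.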

Additional observations from a re-analysis of the deposited data

How the results depend on the processing

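The median percentile of the 9 genes was 84.4 on the count scale among all listed genes. It was 82.3 among genes whose mean reached 10 normalized counts, 77.9 among protein-coding genes, 84.3 per kilobase of merged exons, 85.9 per kilobase of the longest transcript and 87.6 without *OCLN*. For the other tight junction genes it was 68.5, and 64.8, 55.3, 64.2 and 66.7 under the first 4 of these settings. All 9 genes were above the median of the background on counts, per kilobase of merged exons and among protein-coding genes. Among the protein-coding genes, 15355 of the 21944 listed, *TJP3* was near the middle at percentile 52.8. *OCLN* and *CLDN7* were both at 58.7. Per kilobase, the longest transcript in place of merged exons left *CLDN6* and *CLDN3* at the same value, raised the other 7, and exchanged *CLDN12* and *CLDN7* in the order. No paired analysis was possible because the mean over all samples carries no replicate numbers. The edgeR and DESeq2 fits, the filter on low counts, the replicate block and leaving out single replicates were not run for the same reason. Without values of single samples, the precision of each mean is unknown, and neighbours in the order of levels may not differ.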
